A study of Mus musculus with 6 samples.

Results

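Regulatory T cells of mouse skin were taken as the barcodes that held RNA of Foxp3, the transcription factor that defines this lineage, together with RNA of the CD3 chains of the T-cell receptor complex. In the 3 libraries of sorted CD45-positive cells, a member had at least 2 unique molecular identifiers (UMIs, the counted RNA molecules) of Cd3d, Cd3e and Cd3g together and at least 1 UMI of Foxp3. It had no UMI of Cd8a, Cd8b1 or Trdc, and at most 2 of the myeloid and Langerhans cell genes C1qa, C1qb, C1qc, Cd207 and Lyz2. Members were thus chosen by their own UMI counts of these genes, whose levels are a description here and no result. The rule found 1008 members among the 18971 barcodes that passed the cell filter. There were 369 in the wild-type library, 163 in the library of enhancer-deleted mice without alopecia and 476 in that of enhancer-deleted mice with alopecia.

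Regulatory T cells restrain other T cells and are known in skin for limiting inflammation and for living around the hair follicle. They make little interleukin-2 (IL-2) themselves and depend on the IL-2 that other T cells release, which they bind with a receptor built of the alpha chain CD25 (Il2ra), the beta chain (Il2rb) and the common gamma chain (Il2rg). The alpha chain gives the receptor its high affinity, and the beta and gamma chains signal through the kinases JAK1 and JAK3 to STAT5, which acts on Foxp3, on Il2ra itself and on feedback inhibitors such as Cish and Socs genes.

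The skin came from adult female mice 17 to 18 weeks old that received no treatment, and the labels give the C57/BL6 genotype for every sample. The control mice were wild type (WT), and in the other mice (UP_Del) an enhancer located upstream of Il2ra had been deleted. These mice either did or did not present with alopecia, which is hair loss. The labels name no cell type to which the deletion is restricted. After the hypodermis was scraped away, the remaining skin was digested with Liberase, DNase and trypsin, live CD45-positive cells were sorted, and RNA was counted from its 5' end with the 10x Genomics HT v2 kit. Each group had 1 CD45-positive library, and how many mice each library came from is not given in the sources used here. A difference between libraries therefore has no replicate check and no test, and the genotype, the alopecia and the library cannot be told apart. All intervals are exact 95% intervals that cover counting error only.

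The wild-type, no-alopecia and alopecia libraries held 6702, 3340 and 9610 barcodes, of which 6487, 3278 and 9206 were kept, with median depths of 4573, 4855.5 and 4157 UMIs. Members were somewhat shallower, at medians of 4022, 3835 and 3414 UMIs, and their summed UMIs came to 1912780, 740661 and 1993152. Levels below are UMIs scaled to equal sums (counts per 1000000, CPM), and the no-alopecia sum, the smallest, gives the widest intervals. Between 81 and 134 barcodes per library, counted before the cell filter, had a sequence also found in another library. Of the members, 6, 3 and 10 did, and no member shared its sequence with a member of another library.

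The label fitted the markers that the rule did not use. Ctla4, an inhibitory receptor that strips costimulatory ligands from antigen-presenting cells, was detected in 97.0% of wild-type members, 95.7% of those without and 96.6% of those with alopecia. Ikzf2, which encodes the lineage factor Helios, was detected in 92.7%, 93.3% and 92.4%. Tnfrsf4, the costimulatory receptor OX40, was detected in 89.4%, 93.3% and 88.7%. As a comparison class, Foxp3-negative CD4 T cells were taken by the same rule with no Foxp3 UMI and at least 1 Cd4 UMI. A regulatory T cell whose Foxp3 RNA was not captured can fall into that class, and how many did was not tested. Against it, on the log2 scale of CPM ratios within a library, Ctla4 was higher in members by 2.21, 2.89 and 2.22, Ikzf2 by 3.39, 3.47 and 2.89, and Tnfrsf4 by 2.08, 2.24 and 1.86. Since Foxp3 parts these classes, the ratios are a description and not a test. Foxp3 itself was found in 0%, 1.79% and 2.60% of mast cells (median depths 1080, 1188 and 929.5 UMIs) and in 0%, 0.305% and 0.952% of stromal or epithelial barcodes (7796, 4310 and 6719 UMIs), where the 0 of 82 mast cells allows a share of up to 3.66% and the 0 of 241 stromal barcodes one of up to 1.24%. These are classes that should lack the gene.

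The rule sits close to the counting limit for many cells. Members with exactly 1 Foxp3 UMI numbered 82, 39 and 131, those with 2 numbered 84, 21 and 119, and those with 3 or more numbered 203, 103 and 226. Just outside, 1527, 584 and 1440 barcodes met every other condition but had no Foxp3 UMI. At the CD3 threshold, 59, 23 and 75 members had exactly 2 UMIs, while 53, 17 and 68 otherwise fitting barcodes had 1. At the myeloid limit, 8, 0 and 10 members had 2 such UMIs and 0, 3 and 5 otherwise fitting barcodes had 3. Cd4 RNA, which is often missed in droplet data, was found in 37.9%, 42.9% and 43.1% of members and was not asked for.

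Regulatory T cells made up a similar share of the CD45-positive cells in the 3 libraries, while the other CD4 T cells and the CD8 T cells were fewer in both libraries of enhancer-deleted mice. Members were 5.69% of kept barcodes in wild type (95% Clopper-Pearson interval 5.14 to 6.28), 4.97% without alopecia (4.25 to 5.77) and 5.17% with alopecia (4.73 to 5.64). The share without alopecia was 0.87 times the wild-type one (0.72 to 1.05) and the share with alopecia 0.91 times (0.79 to 1.04). Both intervals take in equal shares, and they reach down to 0.72 times without alopecia and 0.79 times with it. After every barcode was thinned at random to 1000 UMIs, the rule found 1.56%, 1.61% and 1.59%. Foxp3-negative CD4 T cells were 7.04%, 3.66% and 3.15% of kept barcodes, or 0.52 times (0.42 to 0.64) and 0.45 times (0.38 to 0.52) the wild-type share. CD8 T cells were 8.36%, 2.59% and 2.50%, or 0.31 times (0.24 to 0.39) and 0.30 times (0.26 to 0.35). Gamma delta T cells, which were the most frequent T cells in each library, stood at 18.8%, 17.9% and 19.0%. Among barcodes with 2 or more CD3 UMIs, Foxp3-negative CD4 T cells were 0.61 and 0.54 times the wild-type share and CD8 T cells 0.36 and 0.36 times. On that base members were 1.02 (0.84 to 1.23) and 1.09 times (0.95 to 1.25), and gamma delta T cells 1.12 (1.01 to 1.23) and 1.21 times (1.13 to 1.31).

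Members were accordingly a larger part of the sum of members and Foxp3-negative CD4 T cells in the libraries of enhancer-deleted mice. That sum is not all CD4 T cells, since a Cd4 UMI was asked of the Foxp3-negative class only. Foxp3-negative cells whose Cd4 RNA was missed are left out of it, while such members are kept. Members with Cd4 RNA numbered 140, 70 and 205 in wild type, without and with alopecia, against 457, 120 and 290 Foxp3-negative CD4 T cells. Of members and Foxp3-negative CD4 T cells together, members were 44.7% in wild type (41.2 to 48.1), 57.6% without alopecia (51.6 to 63.4) and 62.1% with alopecia (58.6 to 65.6). After thinning the values were 49.7% (42.6 to 56.9), 60.2% (48.9 to 70.8) and 61.5% (54.8 to 67.9). The interval of the wild-type library lay below those of both other libraries in the full data, and the thinned intervals overlapped.

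**Figure D1:**
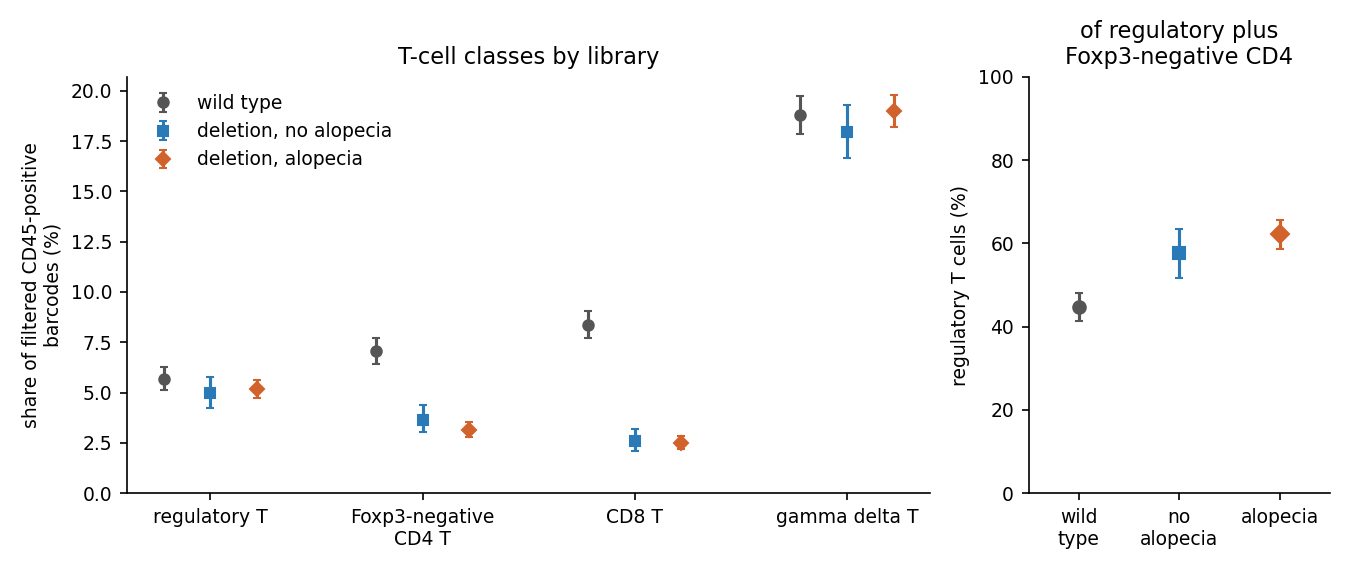
Share of filtered CD45-positive barcodes in 4 T-cell classes (left, y axis in percent) and regulatory T cells as percent of regulatory plus Foxp3-negative CD4 T cells (right), 1 point per library with its exact 95% interval. The 3 regulatory T-cell shares lie between 4.97% and 5.69%, while the CD8 share is 8.36% in wild type and 2.59% and 2.50% in the enhancer-deleted mice.

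Il2ra, whose upstream enhancer was deleted, was the IL-2 receptor chain that differed most between genotypes, at less than 0.5 times the wild-type level in both libraries of enhancer-deleted mice. The gene (ENSMUSG00000026770) lies on chromosome 2 at 11642807 to 11693193 on the plus strand of GRCm38, by GENCODE vM21. The 250 bases before its RefSeq start site, at chr2:11642542-11642791 on the plus strand of GRCm38.p6, hold no annotated exon and are given because Il2ra is the gene the deletion addresses. The capitals mark the single match, on either strand, to the kappa B motif that NF-kappaB proteins bind, read as 3 G, any 2 bases, T, any base and 3 C.

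Il2ra: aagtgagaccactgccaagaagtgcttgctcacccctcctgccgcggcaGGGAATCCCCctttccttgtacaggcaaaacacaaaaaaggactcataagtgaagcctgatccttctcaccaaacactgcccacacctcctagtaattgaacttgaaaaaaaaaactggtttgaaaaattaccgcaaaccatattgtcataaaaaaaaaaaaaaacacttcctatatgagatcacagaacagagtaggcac

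The match lay 201 to 192 bases upstream of the start site. A match to that motif was present in 4.29% of the 32851 RefSeq promoter windows of the same length. The STAT motif TTCNNNGAA was found in 7.02% of those windows and had no match in this one. A match describes these letters and is no evidence of binding. The sources used here do not give the position of the deleted enhancer.

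The summed members held 1413, 253 and 691 Il2ra UMIs, which is 739 CPM in wild type (701 to 778), 342 CPM without alopecia (301 to 386) and 347 CPM with alopecia (321 to 374). The level was therefore lower by a log2 ratio of -1.11 without alopecia (-1.31 to -0.92) and of -1.09 with alopecia (-1.22 to -0.96), both against wild type. The libraries of enhancer-deleted mice lay on top of each other, with a log2 ratio of 0.02 for alopecia against no alopecia (-0.19 to 0.23). Both comparisons with wild type use the same wild-type library.

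Fewer cells held Il2ra RNA and those that did held less. An Il2ra UMI was found in 82.1% of wild-type members and in 60.1% and 59.9% of those without and with alopecia, and the mean was 3.83, 1.55 and 1.45 UMIs per cell. Cells with 3 or more Il2ra UMIs numbered 176 of 369, 36 of 163 and 93 of 476, and the highest cell held 37, 18 and 14 UMIs. With each cell thinned to 1000 UMIs, Il2ra was found in 46.3% (41.2 to 51.6), 27.2% (20.5 to 34.7) and 28.5% (24.5 to 32.8). In mast cells the thinned shares were 6.98%, 3.12% and 1.43%, below those of the members in every library. When the members were chosen again after thinning, which left 98, 50 and 139 cells, the log2 ratios of Il2ra against wild type were -1.70 and -1.50.

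The Il2ra difference was found in most subsets into which the members were split. All subsets divide the same cells of the same 3 libraries, some by Foxp3 UMIs or by depth, so they are a description and no repeat. Detection of a gene also went with depth. Wild-type members with Cd4 RNA had a median of 4643 UMIs and those without it 3778. Members with 1, 2 and 3 or more Foxp3 UMIs held 634, 710 and 788 CPM of Il2ra in wild type, 294, 294 and 366 CPM without alopecia and 365, 291 and 364 CPM with alopecia. Members with RNA of Il1rl1, the receptor for interleukin-33 on tissue regulatory T cells, held 818, 468 and 368 CPM, and those without it held 589, 202 and 319 CPM. Members with RNA of Ccr7, a receptor that guides cells to lymph nodes, held 813, 416 and 419 CPM and those without it 705, 319 and 321 CPM. Il2ra was at 377, 167 and 269 CPM in members with RNA of the proliferation gene Mki67 and at 839, 369 and 361 CPM in the others. Wild type was the highest library in each subset by Foxp3, Il1rl1, Ccr7 and Mki67, and the order of the other libraries varied. Over 34 overlapping subsets the log2 ratio against wild type had an interval below 0 in 33 in each comparison. The exception was the members with 10 or more keratinocyte UMIs, which numbered 11, 6 and 10 and held 27, 15 and 31 Il2ra UMIs, or 129, 171 and 192 CPM. In the members without any keratinocyte UMI, Il2ra stood at 755, 404 and 365 CPM.

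**Figure D2:**
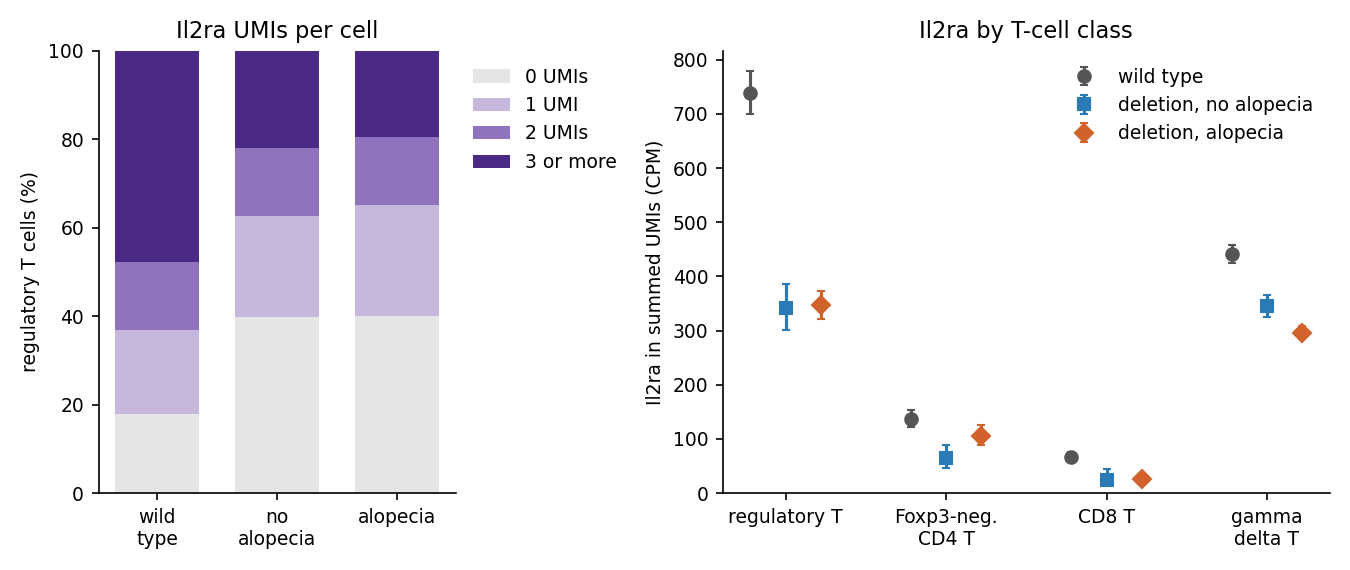
Left, percent of regulatory T cells with 0, 1, 2 or at least 3 Il2ra UMIs in each library; right, Il2ra level in CPM of summed UMIs in 4 T-cell classes, 1 point per library with its exact 95% interval. In regulatory T cells the wild-type library stands at 739 CPM and the other libraries at 342 and 347 CPM.

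Regulatory T cells had the highest Il2ra level of the T-cell classes in wild type. There, Foxp3-negative CD4 T cells held 137 CPM, CD8 T cells 65.9 CPM and gamma delta T cells 441 CPM. Against wild type, Il2ra in Foxp3-negative CD4 T cells was lower by a log2 ratio of -1.09 without alopecia (-1.61 to -0.61) and of -0.38 with alopecia (-0.69 to -0.09). In CD8 T cells it was lower by -1.41 (-2.44 to -0.54) and -1.32 (-1.94 to -0.75), from 11 and 29 UMIs. In gamma delta T cells the ratios were nearer 0, at -0.36 (-0.45 to -0.26) and -0.58 (-0.66 to -0.50), and their intervals did not reach those of the regulatory T cells. Without alopecia, regulatory T cells (342 CPM) and gamma delta T cells (345 CPM) held the same level within counting error.

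The partner chains of the receptor differed little. Il2rb stood at 678, 613 and 541 CPM, a log2 ratio of -0.14 without alopecia (-0.30 to 0.01) and of -0.33 with alopecia (-0.44 to -0.21) against wild type. Il2rg stood at 748, 945 and 736 CPM and was highest in the no-alopecia library, by 0.34 over wild type (0.21 to 0.47). A gene is counted here as higher or lower where its CPM ratio was 1.5 or more either way, among the 6102 genes with a mean of at least 20 CPM over the 3 libraries. By this rule of size 1 of 3 receptor chains, Il2ra, was lower without alopecia, where 7.54% of all genes were lower than in wild type and 5.85% higher. The same chain was lower with alopecia, where 3.49% of all genes were lower than in wild type and 3.05% higher. In either direction together the share of all genes was 13.4% without alopecia and 6.54% with alopecia. These shares are not on equal terms, since the summed UMIs differ. In simulated counts with counting error only, 5.20% of unchanged genes passed the fold without alopecia against wild type and 1.52% with alopecia. For alopecia against no alopecia it was 5.39%. None of the chains passed the fold between alopecia and no alopecia, where 13.8% of all genes did, 8.16% higher with alopecia and 5.60% lower. The median log2 ratio of all genes was -0.01, 0.02 and 0.04 in these comparisons.

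The genes that carry the signal from the receptor were at like levels in the 3 libraries. None of 5 passed the fold in any comparison, with medians of 0.05, -0.01 and -0.13 on the log2 scale. Jak1 stood at 465, 454 and 479 CPM, Jak3 at 57.0, 64.8 and 59.2 CPM and Stat5b at 249, 258 and 247 CPM. Stat5a, the other STAT5 gene, stood at 134, 139 and 102 CPM and was lower in alopecia than in wild type by -0.40 (-0.67 to -0.13). Stat3, which is mainly used by the receptors for interleukin-6 and interleukin-21, stood at 852, 915 and 768 CPM.

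STAT5 feedback and survival genes showed no common direction against wild type. Of 9 such genes 8 were high enough to be counted, and against wild type 2 were higher and 0 lower without alopecia, and 0 were higher and 1 lower with alopecia. Cish, a feedback inhibitor that IL-2 induces through STAT5, stood at 341, 351 and 283 CPM. Its log2 ratio against wild type was 0.04 without alopecia (-0.17 to 0.25) and -0.27 with alopecia (-0.43 to -0.10). Socs2, another such inhibitor, stood at 53.9, 51.3 and 72.8 CPM. Pim1, a survival kinase under STAT control, stood at 1100, 936 and 1080 CPM, and the anti-apoptotic Mcl1 at 346, 410 and 387 CPM. Neither gene passed the fold.

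Socs3 and Myc separated the libraries of enhancer-deleted mice. Socs3, an inhibitor induced mainly by STAT3, stood at 167 CPM in wild type, 304 CPM without alopecia and 134 CPM with alopecia. It was higher without alopecia than in wild type by 0.87 (0.61 to 1.12) and lower in alopecia than without by -1.18 (-1.44 to -0.91). It was detected in 30.9%, 36.8% and 23.3% of members. Myc, a driver of cell growth, stood at 83.1, 115 and 50.2 CPM, a log2 ratio of -1.19 for alopecia against no alopecia (-1.63 to -0.76) and of -0.73 for alopecia against wild type (-1.10 to -0.36). Socs1 was lower in alopecia than without by -0.60 (-0.82 to -0.37) and Pim2 by -0.86. With these 2 genes 4 of 8 were lower in alopecia than without, against 5.60% of all genes, with a list median of -0.45. The count was 2 among members without RNA of other cell types, 3 with trimmed-mean scaling and 4 by a mean over cells. These calls were less stable than that of Il2ra. Among members chosen after thinning, the ratios of alopecia to no alopecia were -0.48 for Socs3 and 0.20 for Socs1. Among members without RNA of other cell types, that of Myc was -0.51.

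Il7r, the receptor for interleukin-7, another cytokine that uses the common gamma chain and STAT5, was higher in both libraries where Il2ra was lower. It stood at 588 CPM in wild type, 736 CPM without alopecia and 923 CPM with alopecia. Its log2 ratio against wild type was 0.32 without alopecia (0.17 to 0.47) and 0.65 with alopecia (0.54 to 0.76), and that of alopecia to no alopecia 0.33 (0.19 to 0.47). The exact intervals of these Il7r levels, 554 to 624, 675 to 800 and 881 to 966 CPM, did not overlap. Il7r RNA was detected in 80.5%, 82.8% and 86.1% of members, or in 42.0%, 48.8% and 58.6% after thinning. The thinned shares were 31.9%, 20.3% and 35.8% in Foxp3-negative CD4 T cells and 19.9%, 16.7% and 31.9% in CD8 T cells. In gamma delta T cells they were 40.5%, 36.1% and 41.8%. These classes were thus also highest with alopecia, but lowest without it. The ratio of alopecia to wild type was 0.40 among members chosen after thinning, under the fold. Il4ra stood at 202, 243 and 215 CPM. Il21r, the interleukin-21 receptor, stood at 236, 263 and 175 CPM and was lower in alopecia than without by -0.59 (-0.85 to -0.33), which was -0.31 after thinning.

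**Figure D3:**
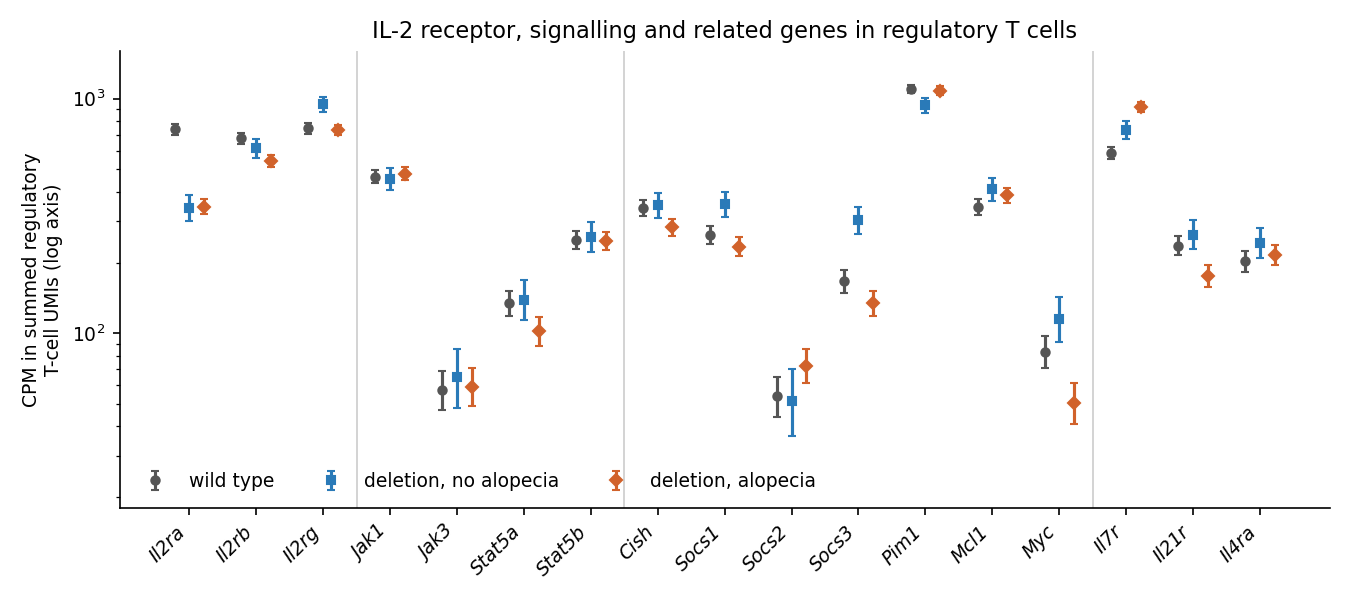
Level in CPM (log axis) of the IL-2 receptor chains, their signal transducers, STAT5 feedback and survival genes and other common gamma chain receptors in summed regulatory T-cell UMIs, 1 point per library with its exact 95% interval. Il2ra is at 739 CPM in wild type and near 345 CPM in both other libraries, and Il7r runs the other way from 588 to 923 CPM.

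The genes that define the lineage stood mostly near their wild-type levels in the enhancer-deleted mice. Of 15 lineage genes 12 were counted, and 0 passed the fold upward and 1 downward without alopecia, and none with alopecia or between the libraries of enhancer-deleted mice, with medians of 0.08, 0.10 and -0.01. Ctla4 stood at 2597, 3244 and 2755 CPM, and Ikzf2 at 1330, 1446 and 1470 CPM. Ikzf4, which encodes the related factor Eos, stood at 166, 166 and 136 CPM. Tnfrsf4 was highest without alopecia, at 1319, 1877 and 1472 CPM, a log2 ratio of 0.51 against wild type (0.41 to 0.60). The related receptor Tnfrsf18 (GITR) stood at 639, 838 and 704 CPM. The gene past the fold was Lrrc32, which encodes GARP, the surface anchor of latent TGF-beta, at 60.7, 36.5 and 43.2 CPM and a ratio of -0.73 without alopecia (-1.40 to -0.12).

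Tnfrsf9 (4-1BB), a costimulatory receptor of activated regulatory T cells, was detected in fewer members of the enhancer-deleted mice although its summed level was close. It was found in 77.5% of wild-type members, 63.2% without alopecia and 63.4% with alopecia, and in 51.5%, 43.2% and 41.1% after thinning. Its level stood at 1035, 1065 and 907 CPM. The costimulatory receptor Icos was found in 95.9%, 95.7% and 96.4% and stood at 1764, 1892 and 1914 CPM. Cd28 stood at 477, 398 and 598 CPM and was higher in alopecia than without by 0.59 (0.40 to 0.77). In the list of 16 inhibitory and costimulatory receptors, 12 of which were counted, Cd28 and Cd226 were the 2 higher in alopecia than without. Cd226 was also the 1 gene lower without alopecia than in wild type, at 23.5, 8.10 and 29.6 CPM from 45, 6 and 59 UMIs.

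**Figure D4:**
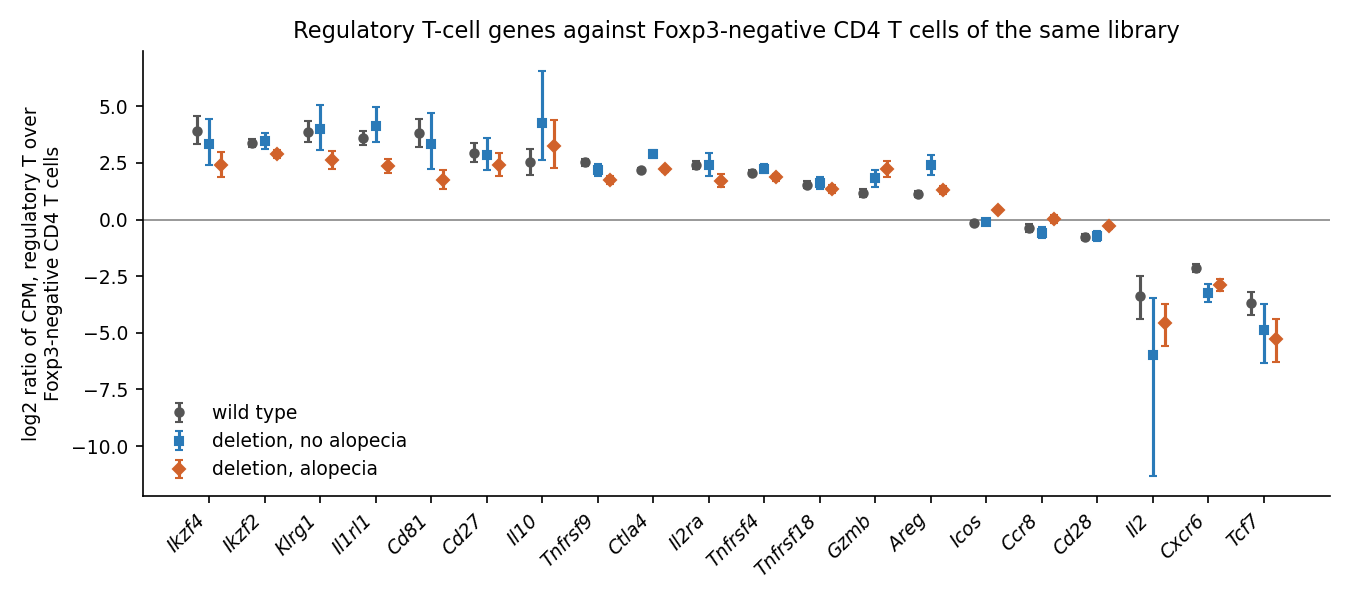
Log2 ratio of the CPM in regulatory T cells to that in Foxp3-negative CD4 T cells of the same library for genes of the fixed lists, 1 point per library with its exact 95% interval. Ikzf2 lies between 2.89 and 3.47 and Ctla4 between 2.21 and 2.89, while Cxcr6, from -2.13 to -3.22, and Tcf7 lie below 0 in each library.

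Members had the traits of tissue regulatory T cells in each library. Il1rl1 stood at 507, 467 and 433 CPM and was detected in 60.7%, 51.5% and 50.6% of members. Klrg1, a receptor of differentiated effector cells, stood at 268, 262 and 290 CPM and was found in 49.1%, 50.3% and 48.9%. Gata3, a transcription factor of type 2 and tissue regulatory cells, stood at 352, 378 and 355 CPM. None of these genes passed the fold. Itgae (CD103), an integrin chain that binds epithelial E-cadherin, stood at 549, 697 and 700 CPM, and the skin-homing receptor Ccr8 at 281, 362 and 368 CPM. Both were higher in the enhancer-deleted mice, Itgae by 0.34 and 0.35 and Ccr8 by 0.37 and 0.39, under the fold. In the whole list of 26 effector and tissue genes 25 were counted, and 0 were higher and 1 lower without alopecia, 1 higher and 1 lower with alopecia, and 2 higher and 2 lower between the libraries of enhancer-deleted mice. The medians were 0.08, 0.09 and 0.08.

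Cxcr6, a chemokine receptor of skin-resident T cells, was the effector gene that was lower in both enhancer-deleted libraries. It stood at 145 CPM in wild type, 81.0 CPM without alopecia and 69.2 CPM with alopecia, with ratios of -0.84 (-1.27 to -0.44) and -1.07 (-1.37 to -0.77). It was detected in 25.5%, 16.0% and 13.2% of members. Foxp3-negative CD4 T cells held more, at 636, 757 and 511 CPM. Penk, which encodes proenkephalin, stood at 35.6, 41.9 and 93.3 CPM and was higher in alopecia than in wild type by 1.39 (0.98 to 1.81). It rested on few cells: it was found in 2.98%, 5.52% and 3.99% of members, and the highest single cell held 36, 13 and 69 UMIs.

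Areg and Batf went different ways between the libraries of enhancer-deleted mice. Areg, which encodes the tissue-repair factor amphiregulin, stood at 659, 489 and 724 CPM, lower without alopecia than in wild type by -0.43 (-0.60 to -0.26) and higher in alopecia than without by 0.57 (0.40 to 0.74). Batf, a transcription factor of tissue regulatory T cells, stood at 310, 416 and 227 CPM and was lower in alopecia than without by -0.87 (-1.09 to -0.66), or by -0.24 after thinning. Gzmb, which encodes the cytotoxic protease granzyme B, stood at 342, 437 and 289 CPM, a ratio of -0.60 for alopecia to no alopecia (-0.79 to -0.39) and of -0.20 after thinning. The cytokine Il10 stood at 80.5, 94.5 and 67.2 CPM and Tgfb1 at 603, 612 and 483 CPM, both lowest in alopecia. Entpd1 (CD39), an enzyme that degrades extracellular ATP, stood at 24.0, 16.2 and 26.1 CPM, with an interval of -0.24 to 1.73 for alopecia to no alopecia.

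Genes typical of naive and central memory T cells were mostly at or below the wild-type level in the enhancer-deleted mice. Of 13 such genes 8 were counted. Against wild type 3 were lower without alopecia and 2 with alopecia, and none higher, with list medians of -0.37 and -0.20. Of all genes, 7.54% and 3.49% were lower in these comparisons. Id3, a transcription factor that holds back effector differentiation, stood at 72.7, 32.4 and 28.6 CPM, with ratios of -1.17 (-1.86 to -0.53) and -1.35 (-1.82 to -0.89). Among members with 2 or more Foxp3 UMIs the Id3 ratios were -0.27 and -0.69. Bach2, a repressor of effector genes, stood at 109, 58.1 and 91.8 CPM, and the chromatin organiser Satb1 at 56.5, 32.4 and 36.1 CPM. Klf2, which drives exit from tissue, was the other way round, at 292, 247 and 397 CPM and higher in alopecia than without by 0.69 (0.45 to 0.93). Ccr7 stood at 288, 312 and 259 CPM.

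Of 16 homing receptors 15 were counted. Ccr6, the receptor for the epithelial chemokine CCL20, was higher in the enhancer-deleted mice, at 143, 238 and 196 CPM with ratios of 0.74 (0.45 to 1.01) and 0.46 (0.23 to 0.69). It was detected in 36.0%, 47.9% and 41.2% of members. Cxcr4, the receptor for CXCL12, stood at 374, 220 and 479 CPM, the lowest without alopecia, and was higher in alopecia than without by 1.12 (0.88 to 1.37). Cxcr3, a receptor for interferon-induced chemokines, stood at 31.4, 25.7 and 19.1 CPM, a ratio of -0.72 for alopecia to wild type (-1.34 to -0.11). Members held little RNA of effector cytokines. Il2 stood at 5.75, 1.35 and 6.02 CPM in members and at 59.7, 86.1 and 144 CPM in Foxp3-negative CD4 T cells. Il17a was at 10.5, 0 and 14.6 CPM, where the 0 allows up to 4.05 CPM. Of 15 T-cell cytokine genes 4 were high enough to be counted.

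Some interferon-gamma response genes were lower in alopecia. Of 25 genes 18 were counted. Without alopecia, 1 was higher and 1 lower than in wild type with a median of -0.02. With alopecia, 0 were higher and 5 lower than in wild type with a median of -0.27, and 0 were higher and 6 lower than without alopecia with a median of -0.34, against 3.49% and 5.60% of all genes lower in the same comparisons. Igtp, a GTPase that interferon gamma induces, stood at 151, 127 and 68.2 CPM, lower in alopecia than in wild type by -1.14 (-1.45 to -0.84). Irgm2, of the same family, stood at 59.1, 78.3 and 35.6 CPM. The guanylate-binding proteins Gbp2, Gbp5 and Gbp6 stood at 37.1, 45.9 and 23.6 CPM, at 32.9, 64.8 and 27.1 CPM and at 49.7, 71.6 and 35.1 CPM, each lowest in alopecia. Guanylate-binding and interferon-inducible GTPases are near-identical families, so that the split of UMIs between members is uncertain.

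The chemokine gene Cxcl10 stood at 126 CPM in wild type, 83.7 CPM without alopecia and 68.7 CPM with alopecia, with ratios against wild type of -0.60 (-1.02 to -0.19) and -0.88 (-1.19 to -0.57). Its ratios were 0.32 and -0.10 among members with 2 or more Foxp3 UMIs. Cxcl9, its neighbour, had 0 UMIs in members of each library, which allows up to 1.57, 4.05 and 1.51 CPM. Without the members that held RNA of other cell types, 0 of the counted interferon-gamma genes were higher and 5 lower in alopecia than in wild type, with a median of -0.28. In the type I interferon list, 5 of 19 genes were counted, among them Isg15 at 69.0, 70.2 and 40.6 CPM, a ratio of -0.76 for alopecia to wild type (-1.18 to -0.35).

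Cell-cycle genes were mostly lower in members without alopecia than in wild type. Of 21 cell-cycle genes 10 were counted. Without alopecia 7 were lower than in wild type and none higher, with a median of -0.87, where 7.54% of all genes were lower. With alopecia 3 were lower than in wild type and none higher, with a median of -0.39, where 3.49% of all genes were lower. Against no alopecia 4 were higher and none lower with alopecia, where 8.16% of all genes were higher. Of these cell-cycle genes 1 was lower in alopecia than in wild type among members without RNA of other cell types, with a median of -0.25, and 1 by a mean over cells, with a median of -0.13. By that mean 2 were higher and 5 lower without alopecia than in wild type. Mki67 stood at 99.9, 32.4 and 74.8 CPM, and Top2a, an enzyme that untangles chromosomes, at 64.8, 20.3 and 50.2 CPM. Stmn1, a microtubule regulator of dividing cells, stood at 156, 44.6 and 104 CPM. A UMI of Mki67 or Top2a was found in 21.95% of wild-type members (17.8 to 26.5), 14.1% without alopecia (9.16 to 20.4) and 16.0% with alopecia (12.8 to 19.6). After thinning the shares were 7.86% (5.33 to 11.1), 4.94% (2.16 to 9.50) and 7.59% (5.38 to 10.4). The intervals overlapped both before and after thinning. Foxp3-negative CD4 T cells showed another order, at 20.8%, 30.8% and 18.6% in the full data.

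T-cell receptor signalling and NF-kappaB genes were mostly at like levels, with 14 of 16 and 12 of 12 genes counted and at most 2 past the fold in any comparison. Egr1, an early gene of receptor signalling that digestion of tissue also induces, stood at 168, 52.7 and 69.7 CPM, lower than in wild type by -1.67 (-2.19 to -1.19) and -1.27 (-1.56 to -0.98). Nfkb2, a subunit of the alternative NF-kappaB pathway, stood at 185, 278 and 182 CPM, a ratio of 0.59 without alopecia to wild type, or of -0.14 after thinning. Genes of dissociation stress differed in both directions. Of 21 such genes, 4 were higher and 4 lower without alopecia than in wild type, and 1 was higher and 2 lower with alopecia. Of all genes, 5.85% were higher and 7.54% lower in the former comparison, and 3.05% and 3.49% in the latter. Against no alopecia, 3 stress genes were higher and 4 lower with alopecia, where 8.16% of all genes were higher and 5.60% lower. The balance of alopecia against wild type turned to 4 higher and 1 lower, with a median of 0.10, among members without RNA of other cell types, and to 3 higher and 2 lower by a mean over cells. Fos stood at 658, 383 and 612 CPM and Fosb at 266, 134 and 266 CPM, lowest without alopecia, but after thinning the ratio of no alopecia to wild type was -0.21 for Fos and 0.73 for Fosb. The heat-shock genes Hspa1a and Hspa1b, near-identical copies between which the split of UMIs is uncertain, stood at 105, 250 and 128 CPM and at 143, 327 and 171 CPM, highest without alopecia. The isolation of cells can move such genes, and their part in the other differences of the no-alopecia library was not tested.

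Some cholesterol synthesis genes were lower in alopecia. Of 14 cholesterol synthesis genes 7 were counted. In alopecia 3 were lower than in wild type, with a median of -0.55, where 3.49% of all genes were lower. Against no alopecia 1 was higher and 3 were lower, with a median of -0.50, where 8.16% of all genes were higher and 5.60% lower. Hmgcs1, an early enzyme of the pathway, stood at 43.9, 45.9 and 20.6 CPM, and Idi1, the isopentenyl diphosphate isomerase, at 40.3, 36.5 and 19.6 CPM. Fdps, the farnesyl diphosphate synthase, stood at 30.8, 21.6 and 8.53 CPM, a ratio to wild type of -1.85 with alopecia that was -0.56 among members without RNA of other cell types. In that set 1 cholesterol gene was lower in alopecia than in wild type, with a list median of -0.46. Against no alopecia 1 was higher and 2 were lower there, with a median of -0.11. Of 15 glycolysis genes 14 were counted and 1 was higher in each library of enhancer-deleted mice than in wild type, Pfkl, a phosphofructokinase chain, without alopecia and Slc2a3, a glucose transporter, with alopecia. Between alopecia and no alopecia, 2 glycolysis genes were higher in alopecia. Slc2a3 stood at 34.0, 27.0 and 65.7 CPM. Of 13 apoptosis regulators 11 were counted. Bcl2l11, which encodes the death factor BIM that is opposed by cytokine signals, was the 1 past the fold in any comparison, at 80.0, 52.7 and 69.2 CPM and lower without alopecia. The MHC class I genes H2-K1 and B2m stood at 3106, 3007 and 3129 CPM and at 1964, 1693 and 2074 CPM.

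Outside the fixed lists, the largest differences from wild type that were spread over many cells included genes that also differed in the other T-cell classes. This ranking took genes for which the 5 cells with most UMIs held at most 25% of the UMIs in the library where the gene was higher, a condition added after the data had been seen. In the other libraries the UMIs were sometimes in few cells, as for Ly6a, of which 5 cells held 63.6% without alopecia and 40.5% with it, and for Il23r, with 81.8% in 5 cells without alopecia. Ly6e, a surface protein of the Ly6 family, stood at 1822 CPM in wild type, 238 CPM without alopecia and 258 CPM with alopecia, and was detected in 99.7%, 41.7% and 37.6% of members. Its log2 ratio against wild type was -2.94 (-3.17 to -2.72) and -2.82 (-2.96 to -2.69). In alopecia against wild type the ratio was -2.55 in Foxp3-negative CD4 T cells, -2.07 in CD8 T cells and -3.58 in gamma delta T cells. Ly6a (Sca-1), a relative whose UMIs may be shared with other Ly6 genes, stood at 393, 134 and 79.3 CPM and was found in 53.9%, 13.5% and 10.7% of members. Apobec3, a cytidine deaminase that restricts retroviruses, stood at 92.5, 6.75 and 12.5 CPM and was found in 34.1%, 3.07% and 5.25%. The 3 genes lie on chromosome 15 of GRCm38, Ly6e at 74955051 to 74959905, Ly6a at 74994877 to 74998031 and Apobec3 at 79891659 to 79915906, by GENCODE vM21. Il2rb, whose level differed little, lies on the same chromosome at 78479256 to 78495271.

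Other spread genes below wild type were Pde1c, a phosphodiesterase gene, at 105, 27.0 and 32.6 CPM, Sytl3, a synaptotagmin-like gene, at 135, 51.3 and 61.2 CPM, and Ets2, a transcription factor, at 186, 103 and 97.3 CPM. Above wild type stood Ifnar2, a chain of the type I interferon receptor, at 66.9, 165 and 149 CPM, with ratios of 1.30 (0.93 to 1.67) and 1.15 (0.85 to 1.47). Tsc22d3, which encodes the glucocorticoid-induced protein GILZ, stood at 383, 649 and 658 CPM. Etnk2, an ethanolamine kinase gene, stood at 1.05, 44.6 and 48.2 CPM from 2, 33 and 96 UMIs, and was found in 0.542%, 14.1% and 13.7% of members. Il23r, the interleukin-23 receptor, stood at 13.1, 29.7 and 52.2 CPM, a ratio of 2.00 for alopecia to wild type (1.36 to 2.69). The Il23r ratio in Foxp3-negative CD4 T cells was -0.10 and in gamma delta T cells -0.06, and neither interval reached that of regulatory T cells. In CD8 T cells the Il23r ratio was 1.02 (0.16 to 1.87), an interval that overlapped that of regulatory T cells. Gamma delta T-cell markers in members, Il23r included, summed to 31.4, 31.1 and 67.2 CPM, from 60, 23 and 134 UMIs. Il23r itself held 25, 22 and 104 of these UMIs, so this sum largely follows Il23r. The part of gamma delta T-cell RNA in the Il23r difference was not tested.

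**Figure D5:**
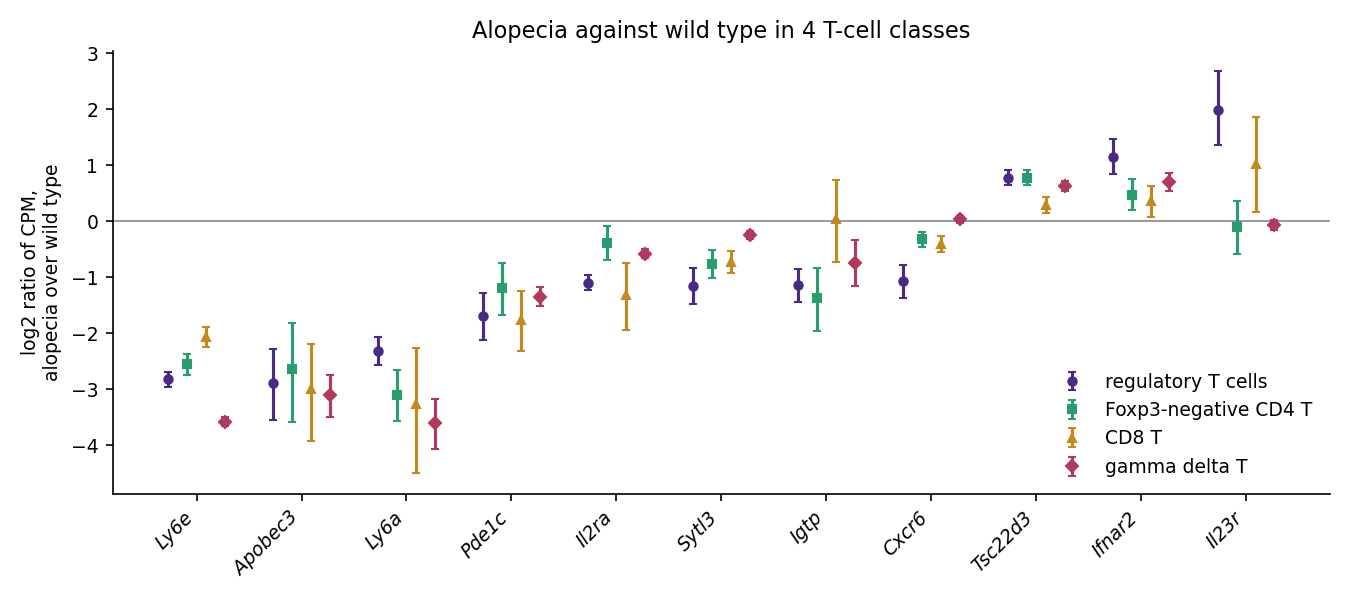
Log2 ratio of CPM, alopecia over wild type, for 11 genes in 4 T-cell classes, 1 point per class with its exact 95% interval and a line at equal levels. Ly6e, Apobec3 and Ly6a lie below -2 in each class, whereas Il23r lies at 2.00 in regulatory T cells, at 1.02 in CD8 T cells and near 0 in Foxp3-negative CD4 and gamma delta T cells.

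Between the libraries of enhancer-deleted mice, spread genes higher with alopecia were led by Arhgap15, a GTPase-activating protein for Rac, at 391, 216 and 586 CPM and a ratio of 1.44 for alopecia to no alopecia (1.20 to 1.69). Its ratio was 1.11 in Foxp3-negative CD4 T cells, 0.77 in CD8 T cells and 0.75 in gamma delta T cells. The next was Vars, a valyl-tRNA synthetase, at 73.7, 24.3 and 75.3 CPM. Lower with alopecia was Lmna, which encodes the nuclear lamins A and C, at 1416, 2078 and 1355 CPM, a ratio of -0.62 (-0.71 to -0.53). For Vars and Lmna the no-alopecia library stood apart, and wild type and alopecia were close.

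RNA of other cell types was present in some members. Keratinocyte markers were at 0 UMIs in 68.0%, 71.2% and 75.2% of members and summed to 1738, 1867 and 1785 CPM, of which 5 cells held 71.8%, 87.9% and 75.4%. Antigen-presenting cell markers summed to 1429, 1865 and 1281 CPM and macrophage markers to 689, 1199 and 493 CPM. Markers of NK and cytotoxic cells summed to 376, 75.6 and 443 CPM, and those of mast cells to 152, 9.45 and 29.1 CPM. Fibroblast, red cell and B cell markers stayed at or below 23.0, 2.09 and 5.52 CPM. Leaving out members with 5 or more UMIs of the keratinocyte, fibroblast or mast cell list or 10 or more of the antigen-presenting list left 323, 147 and 433 members.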

How the data were processed

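Whole mouse skin was profiled by droplet single-cell RNA sequencing of sorted live cells, and the 3 CD45-positive libraries, 1 per group, were analysed. The authors deposited raw UMI counts, 1 value for each of 32285 genes and each barcode, per the file headers, from Cell Ranger 7.1.0 with build mm10, per the submitters' processing notes. The annotation release is not given in the sources used here. They were checked to be whole numbers, and no column of another series was present.

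Barcodes with at least 500 UMIs, 300 genes and at most 10% mitochondrial UMIs were kept. The wild-type library lost 3.21% of its barcodes, the no-alopecia library 1.86% and the alopecia library 4.20%, and their totals were 38407339, 20116378 and 50057357 UMIs. Members were chosen on raw UMIs by the rule given in the report, as were the compared classes. CD8 T cells had at least 1 Cd8a or Cd8b1 UMI, and gamma delta T cells at least 1 Trdc UMI. Mast cells had at least 5 UMIs of Cpa3, Mcpt4 and Cma1, and stromal or epithelial barcodes at least 10 collagen, Dcn, Krt5 or Krt14 UMIs. Both lacked CD3 UMIs. Doublets were not removed in the values given. An alternative removed the highest simulated-doublet scores at 0.4% per 1000 barcodes.

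UMIs were summed per class and library and scaled to CPM. Intervals are exact Poisson for CPM, Clopper-Pearson for shares and conditional binomial for ratios. With 1 library per group no test was made. For comparison across depths, barcodes were thinned to 1000 UMIs, leaving out shallower ones (0, 1 and 2 members).

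Named genes are members of 30 gene lists, 10 of them markers of other cell types, and up to 8 genes each way per comparison by the interval bound nearer to equality among genes with a mean of at least 20 CPM. Left out were genes used by the rule, unnamed genes, sex-linked markers, genes of T-cell receptors, immunoglobulins and hemoglobins, and genes of mitochondria and ribosomal proteins. So were genes under 5% of their level in another compared class of the same library. Some genes that were examined are not reported here. A second ranking, for genes spread over many cells, and the alternative without RNA of other cell types were chosen after the data had been seen. The members and lists were chosen with earlier results of these data known. Genes named for small counts or as examples from a list were picked after their values were seen.

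Gene positions came from GENCODE vM21, matched by gene identifier (32158 of 32285, 99.6%), and promoters from RefSeq on GRCm38.p6, present for 254 of 338 list genes. The procedure was tested on simulated data. Python 3.11.15 was used with numpy 2.4.6, scipy 1.17.1, pandas 2.3.3, scanpy 1.11.5 and matplotlib 3.10.9.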

Additional observations from a re-analysis of the deposited data

How the results depend on the processing

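Ratios of the share of regulatory T cells and of the Il2ra level between libraries moved by less than counting error under a 5% mitochondrial limit, at least 1000 UMIs, 2 or more Foxp3 UMIs, no myeloid UMI, doublet removal, shared barcodes left out and removal of members with RNA of other cell types, and Il2ra also under the other scalings and a mean over cells. Il2ra was lower than in wild type in both comparisons under each of these, and stood at -1.70 and -1.50 in place of -1.11 and -1.09 after thinning to 1000 UMIs. The share ratios, whose intervals take in equal shares, did not all keep their direction. Alopecia went from above to below no alopecia with 2 or more Foxp3 UMIs (3.75% against 3.78%), with no myeloid UMI (4.64% against 4.82%) and after thinning, which also turned the ratios to wild type from 0.87 and 0.91 to 1.03 and 1.02. The number of genes past 1.5-fold in regulatory T cells (817 for no alopecia against wild type, 399 for alopecia against wild type, 840 for alopecia against no alopecia) followed the filter on low values. It was 3540, 2685 and 3109 after thinning, 1529, 923 and 1564 at a mean of 10 CPM, 253, 110 and 260 at 50 CPM, and 4303, 4021 and 4157 with at least 1 UMI in both libraries. Trimmed-mean scaling changed the totals of the compared libraries by log2 factors of 0.06, 0.00 and -0.05. The log2 ratios of all genes moved by as much in the opposite direction. It gave 284 higher and 547 lower genes without alopecia against wild type (34.2% higher in place of 43.7%) and 587 and 265 for alopecia against no alopecia (68.9% in place of 59.3%). A mean over cells gave 266 and 193 for alopecia against wild type (58.0% in place of 46.6%).

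Thinning to 1000 UMIs moved most ratios of the other named genes. Of these ratios 63 stayed within their main interval, 129 left it, and 7 that had been past 1.5-fold turned their sign. Log2 ratios past 1.5-fold that turned their sign under any of these alternatives, whose cause was not tested, are these. Smaller ratios that turned are not listed. For no alopecia against wild type, removing RNA of other cell types gave -0.47 for Apoe, -1.24 for H2-Aa and -0.023 for Ier3, 2 or more Foxp3 UMIs gave 0.32 for Cxcl10 and 0.11 for Krt10, and thinning gave 0.73 for Fosb, -0.14 for Nfkb2 and -2.14 for H2-Aa. For alopecia against wild type, doublet removal gave -1.93 for Gzmc and -1.89 for Xcl1, 2 or more Foxp3 UMIs gave 3.90 for Krt10 and 5.20 for Krtdap, removing RNA of other cell types gave 1.06 for Krt10, and thinning gave -0.50 for H2-Aa. For alopecia against no alopecia, removing RNA of other cell types gave 0.30 for Apoe, 1.54 for Defb6 and 2.00 for H2-Aa, 2 or more Foxp3 UMIs gave 0.30 for H2-Aa, and thinning gave 1.64 for H2-Aa, 0.29 for Ly6a and 0.20 for Socs1.

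No paired analysis was possible because each group had 1 library, and for the same reason no library was left out. Summed UMIs of members were fewest in the no-alopecia library, which had 163 members and the widest intervals. Thinned values of genes with fewer than 20 UMIs were not computed (160 values).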

Other observations

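Most genes that the ranking by size alone put first rested on few cells. Of the 16 genes so named per comparison, 11 for no alopecia against wild type, 9 for alopecia against wild type and 15 for alopecia against no alopecia had over 50% of their UMIs in 5 cells of the library where they were higher. They included keratinocyte genes, such as Krt79 at 5.23, 139 and 1.51 CPM in the wild-type, no-alopecia and alopecia members, Krtdap at 173, 1.35 and 99.8 CPM, Krt10 at 149, 6.75 and 93.3 CPM and Defb6 at 73.7, 176 and 5.02 CPM. Apoe, a lipid carrier made by macrophages, stood at 370, 982 and 285 CPM, and the MHC class II chain H2-Aa at 94.1, 247 and 143 CPM. Xcl1, a chemokine of cytotoxic lymphocytes, stood at 52.8, 0 and 142 CPM, with 5 cells holding 86.1% and 98.2% of its UMIs where it was found, and the granzyme gene Gzmc at 110, 12.2 and 176 CPM. The 0 for Xcl1 allows up to 4.05 CPM.

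The T-cell receptors of the members were diverse as far as these 5' counts show. A UMI of a Trbv gene, which encodes the variable part of the beta chain, was found in 242, 102 and 291 members. The most frequent was Trbv1 in wild type, in 14.0% of these cells (9.93 to 19.1), and in alopecia, in 15.1% (11.2 to 19.8). Without alopecia it was Trbv3, in 10.8% (5.51 to 18.5), and Trbv1 was found there in 6.86% (2.80 to 13.6). Trbv3 was found in 4.13% of wild-type cells (2.00 to 7.47) and 10.3% of alopecia cells (7.06 to 14.4). These are shares of single variable genes, and clones were not determined.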
